A study of Mus musculus with 10 samples.

Results

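RNA-seq read counts of 34 genes of cholesterol metabolism were followed in 10 mouse ovaries. The genes were picked by symbol from the deposited table, which lists 55487 genes, and they cover mevalonate synthesis, sterol synthesis, SREBP control, and cholesterol uptake, transport and storage. All 34 were found, and all 34 were among the 18956 genes whose counts were high enough to be tested. The list was drawn up when results of these ovaries were already known, so the levels and fold changes below describe it and are no independent evidence of a direction.

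The ovaries came from 3 groups of female C57BL/6J mice, and old age was natural, not induced by a drug or mutation. Control mice (n = 4, replicates 31 to 34) were 8 weeks old. Aged mice (n = 3, replicates 31, 33 and 34) were 11 months old by their labels. The study's methods give a somewhat younger age. Aged+CF mice (n = 3, replicates 30, 32 and 34) were of the same age and received CEFFE, a cell-free extract of fat tissue, as 200 μL at 3 μg/μL of protein, every 2 days for 2 weeks. Control and Aged mice were injected with saline. All 3 groups had been given 10 IU of PMSG, the gonadotropin that starts follicle growth, 48 h before collection. Each ovary is a bulk sample, so fewer cells of a type and less RNA per cell cannot be told apart. Library totals lay between 15761789 and 21318254 counts.

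Cholesterol is built from acetyl-CoA in a long chain of steps: the mevalonate steps make isoprenoid units, which are joined to squalene, and squalene is closed into lanosterol and trimmed to cholesterol. Many of the enzymes are under the control of SREBP transcription factors, which the escort protein Scap carries to the Golgi when membrane sterol is low and which the Insig proteins hold back when it is high. In the ovary cholesterol is the starting material of steroid hormones, and theca and luteal cells take up much of it from lipoproteins through the receptor Scarb1.

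Promoter sequences were searched for short motifs, which the genes held to different degrees. RefSeq promoters (GRCm38.p6, 250 bases before to 50 after the start of the transcript) were matched by symbol for 28 of the 34 genes. Those of 7 genes are shown as examples: 6 genes had higher levels in Aged ovaries, and Lbr, a sterol reductase, was nearly flat. The SREBP factors are known to bind the core of the sterol regulatory element, and their partner NF-Y the NF-Y box. Of these motifs Hmgcs1 and Insig1 held both, Acat2 only the core, and Msmo1, Idi1, Cyp51 and Lbr only the NF-Y box. Capitals mark the core of the sterol regulatory element (CACNCCAC) and the NF-Y box (CCAAT), each on either strand, and the sequences run 5′ to 3′ along the gene.
Hmgcs1: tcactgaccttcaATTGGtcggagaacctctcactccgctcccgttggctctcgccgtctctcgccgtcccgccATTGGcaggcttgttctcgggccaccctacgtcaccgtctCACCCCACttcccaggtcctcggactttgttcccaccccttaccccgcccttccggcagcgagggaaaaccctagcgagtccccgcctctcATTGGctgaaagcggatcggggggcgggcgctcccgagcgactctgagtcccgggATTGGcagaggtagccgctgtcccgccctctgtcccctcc
Insig1: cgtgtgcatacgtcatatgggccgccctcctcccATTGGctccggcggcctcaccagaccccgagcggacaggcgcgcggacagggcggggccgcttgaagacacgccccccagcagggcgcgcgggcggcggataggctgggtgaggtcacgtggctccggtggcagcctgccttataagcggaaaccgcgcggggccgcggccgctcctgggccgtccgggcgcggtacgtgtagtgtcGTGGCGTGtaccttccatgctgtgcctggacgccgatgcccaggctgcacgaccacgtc
Acat2: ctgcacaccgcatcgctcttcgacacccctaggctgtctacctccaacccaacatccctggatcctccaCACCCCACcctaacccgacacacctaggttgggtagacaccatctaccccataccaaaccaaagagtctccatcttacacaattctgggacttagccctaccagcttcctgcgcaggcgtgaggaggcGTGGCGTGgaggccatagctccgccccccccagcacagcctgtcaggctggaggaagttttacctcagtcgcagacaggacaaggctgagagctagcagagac
Msmo1: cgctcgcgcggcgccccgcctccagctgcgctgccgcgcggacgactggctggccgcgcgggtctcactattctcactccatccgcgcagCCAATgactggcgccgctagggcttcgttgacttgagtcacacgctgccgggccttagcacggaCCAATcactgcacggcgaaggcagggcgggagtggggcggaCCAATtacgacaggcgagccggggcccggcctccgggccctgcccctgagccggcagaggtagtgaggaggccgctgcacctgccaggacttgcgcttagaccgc
Idi1: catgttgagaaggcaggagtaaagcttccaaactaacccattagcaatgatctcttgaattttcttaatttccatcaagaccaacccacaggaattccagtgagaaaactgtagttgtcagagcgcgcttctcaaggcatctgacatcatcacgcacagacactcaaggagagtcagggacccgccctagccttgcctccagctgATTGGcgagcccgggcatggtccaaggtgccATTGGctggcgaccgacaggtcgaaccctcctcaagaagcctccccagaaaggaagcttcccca
Cyp51: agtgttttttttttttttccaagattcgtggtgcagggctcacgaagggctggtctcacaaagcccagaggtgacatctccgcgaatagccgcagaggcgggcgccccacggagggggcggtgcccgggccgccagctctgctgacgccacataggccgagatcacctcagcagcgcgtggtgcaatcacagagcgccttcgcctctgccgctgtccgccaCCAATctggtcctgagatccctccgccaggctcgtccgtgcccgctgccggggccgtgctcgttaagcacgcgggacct
Lbr: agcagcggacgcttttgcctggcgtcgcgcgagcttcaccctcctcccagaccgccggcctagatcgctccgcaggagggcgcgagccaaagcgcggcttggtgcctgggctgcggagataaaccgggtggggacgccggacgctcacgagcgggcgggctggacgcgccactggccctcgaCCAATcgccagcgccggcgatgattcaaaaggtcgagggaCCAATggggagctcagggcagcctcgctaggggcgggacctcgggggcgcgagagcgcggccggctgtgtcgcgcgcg
The windows lie at chr13:119690101-119690400 on the plus strand (Hmgcs1), chr5:28071162-28071461 on the plus strand (Insig1), chr17:12960676-12960975 on the minus strand (Acat2), chr8:64733529-64733828 on the minus strand (Msmo1), chr13:8885356-8885655 on the plus strand (Idi1), chr5:4104648-4104947 on the minus strand (Cyp51) and chr1:181842352-181842651 on the minus strand (Lbr).

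The NF-Y box stood in a promoter of 23 of the 28 matched genes (82.1%), against 41.1% of the 27025 genes in the promoter table and 42.2% of the 12698 of them that were tested here. The sterol regulatory element core was found in 3 genes, Hmgcs1, Insig1 and Acat2 (10.7%), against 7.12% of all genes and 7.80% of tested genes. Acat2 held it at 2 places. The E-box CACGTG, which SREBP factors can also bind, was in 6 genes (21.4% against 8.09% of all genes and 11.1% of tested genes). The Sp1 box GGGCGG was in 24 genes (85.7%), against 38.2% of all genes and 63.8% of tested genes. Lbr held 2 NF-Y boxes and Mylip 3, as many as Msmo1, although neither was higher in Aged. The 4 motifs were searched on both strands, a gene with several promoters counted once, and a match describes letters and not a bound site.

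The first comparison, Aged against Control, asks how the genes differ between old and young ovaries. Differentially expressed genes (DEGs) were those past 1.5-fold with a Benjamini-Hochberg adjusted p under 0.05 in edgeR's quasi-likelihood test over all genes. Of the 34 genes, 21 were DEGs and higher in Aged (5.0% of all tested genes were), and 0 were lower (6.06% of all tested genes were). At an unadjusted p under 0.05 and the same fold, 25 were higher (8.79% of all genes) and 0 lower (9.44%). The median log2 fold change was 1.69 over the 34 genes and -0.00053 over all tested genes. The groups did not overlap for 17 genes, all higher in Aged, while 11.8% of all tested genes were higher without overlap. These counts come from the contrasts that were known when the list was made.

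The 3 Aged ovaries were far apart. Aged 33 had the highest level of all 10 ovaries for 26 of the 34 genes, and Aged 34 the lowest of its group for 29. The median difference from the Control mean over the 34 genes, on the log2 CPM scale, was 1.57 in Aged 31, 2.35 in Aged 33 and 0.39 in Aged 34. In Control it was 0.22, -0.14, 0.17 and -0.27 for replicates 31 to 34, and in Aged+CF it was 0.39, 0.80 and 0.23 for replicates 30, 32 and 34. Aged 34 thus lay among the Aged+CF ovaries in this measure, and Aged 31 and Aged 33 above every other ovary.

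**Figure D1:**
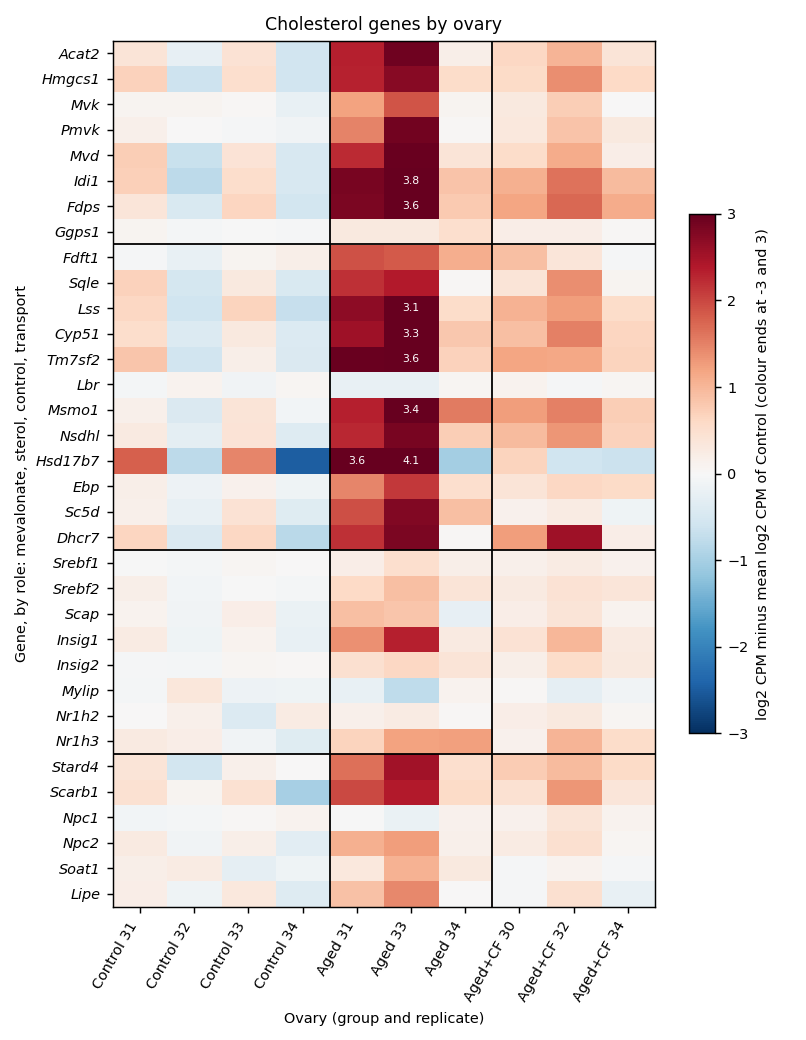
Difference of each gene's log2 CPM from the mean of the 4 Control ovaries (colour, log2 scale ending at -3 and 3, values beyond printed), for 34 genes (rows, by role) in 10 ovaries (columns). The strongest colours stand in Aged 31 and Aged 33, where the medians over the genes were 1.57 and 2.35, and Aged 34 (0.39) is close to the Aged+CF ovaries.

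Without Aged 33 fewer genes passed. In that fit 10 genes were DEGs at the adjusted p (4.14% of all genes were DEGs and higher) and 21 at the unadjusted p (8.66%), all higher in Aged, with a median log2 fold change of 1.13. Those 10 were Idi1, Fdps, Fdft1, Cyp51, Tm7sf2, Msmo1, Nsdhl, Ebp, Sc5d and Stard4, of which 7 belong to the squalene and sterol steps. Without Aged 34, 28 genes were DEGs (8.55% of all genes) and the median was 2.04. The count also fell to 11 without Control 32 and to 10 without Control 34, fits for which no share of all genes is given here.

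Values by ovary are given below as counts scaled by TMM to library size (CPM), in the order Control 31, 32, 33 and 34, then Aged 31, 33 and 34, then Aged+CF 30, 32 and 34. Log2 fold changes are followed by their standard error (SE) and the adjusted p of edgeR's quasi-likelihood test, unless a p is called unadjusted.

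Among the genes of the mevalonate and isoprenoid steps, 7 of 8 were DEGs in Aged against Control. Hmgcs1, which makes HMG-CoA, stood at 389, 158, 341 and 163 CPM (Control), 1202, 1593 and 354 CPM (Aged) and 360.1, 637 and 363 CPM (Aged+CF). Its log2 fold change in Aged was 1.9995 (SE 0.50, adjusted p = 0.0261), although Aged 34 lay below Control 31. Acat2, the thiolase that starts the chain, was at 46.5, 29.9, 48.2 and 24.01 CPM (Control), 180.3, 269 and 40.1 CPM (Aged) and 54.8, 71.9 and 46.9 CPM (Aged+CF). It rose by 2.13 on the log2 scale (SE 0.51, adjusted p = 0.0225), with Aged 34 inside the Control range. Acat2 and Hmgcs1 are 2 of the 3 genes whose promoters hold the sterol regulatory element core.

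The kinases Mvk and Pmvk add phosphates to mevalonate. Mvk stood at 28.3, 28.1, 27.2 and 22.9 CPM (Control), 61.4, 97.99 and 27.9 CPM (Aged) and 32.3, 43.996 and 26.5 CPM (Aged+CF), a log2 fold change of 1.23 in Aged (SE 0.34, adjusted p = 0.0373). Pmvk was at 15.6, 14.1, 13.7 and 12.99 CPM (Control), 39.96, 105 and 14.5 CPM (Aged) and 17.5, 25.7 and 17.3 CPM (Aged+CF) (log2 fold change 1.91, SE 0.50, adjusted p = 0.0305). Both genes were tight in Control, while the highest Aged ovary was 3.51 times the lowest for Mvk and 7.21 times for Pmvk. Mvd, the decarboxylase that follows, was at 43.9, 16.5, 34.7 and 18.7 CPM (Control), 124, 207 and 34.5 CPM (Aged) and 38.6, 56.5 and 30.2 CPM (Aged+CF) (log2 fold change 2.095, SE 0.54, adjusted p = 0.0290). Aged 34 lay within the Control values for Mvd, Mvk and Pmvk.

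The largest log2 fold changes of all 34 genes were those of Idi1 and Fdps. Idi1, which isomerises the isoprenoid unit, was at 44.4, 15.6, 39.1 and 19.4 CPM (Control), 195, 383 and 49.2 CPM (Aged) and 56.9, 83.6 and 51.8 CPM (Aged+CF). The log2 fold change of Idi1 was 2.82 (SE 0.59, adjusted p = 0.0151) with all ovaries and 2.08 (SE 0.55, adjusted p = 0.0439) without Aged 33. Fdps, which makes farnesyl pyrophosphate, stood at 112, 63.03, 137 and 58.8 CPM (Control), 614, 1085 and 149 CPM (Aged) and 198, 286 and 187 CPM (Aged+CF). Every Aged and every Aged+CF ovary lay above every Control ovary for both genes. The log2 fold change of Fdps in Aged was 2.73 (SE 0.55, adjusted p = 0.0134) and 2.08 without Aged 33 (adjusted p = 0.0363).

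Ggps1 leads away from sterols, to the geranylgeranyl chains that anchor small GTPases. It differed little between ovaries, at 43.7, 39.6, 40.4 and 40.1 CPM (Control), 49.7, 49.8 and 58.2 CPM (Aged) and 47.2, 46.9 and 41.9 CPM (Aged+CF). Its log2 fold change in Aged of 0.36 (SE 0.09, adjusted p = 0.0285) was under the 1.5-fold limit, and the Aged values lay above both other groups without overlap. Unlike the other 7, Ggps1 was highest in Aged 34.

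**Figure D2:**
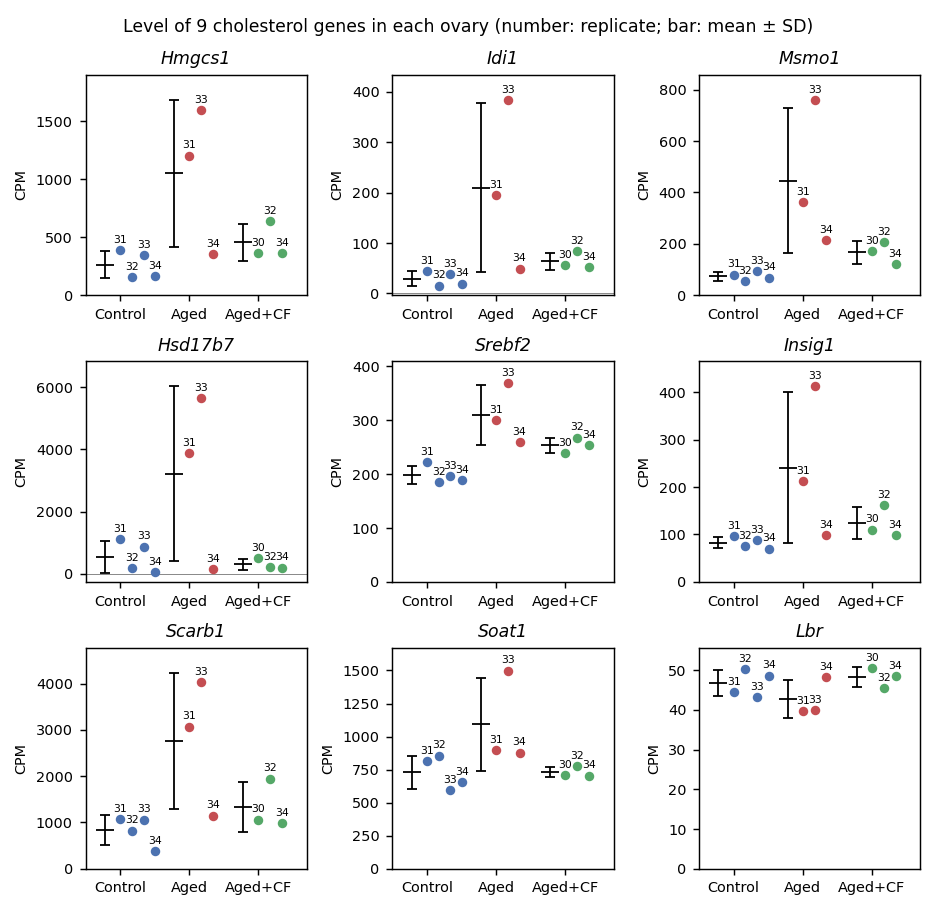
CPM (linear axes) of 9 genes in each ovary; points are ovaries with their replicate number, and bars are the mean ± SD of 4 Control, 3 Aged and 3 Aged+CF ovaries. Aged 33 and then Aged 31 lead in 8 of the 9 panels, as for Hsd17b7 (5643 and 3873 CPM), and Lbr is level across the groups.

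Of the 12 genes from squalene to cholesterol, 8 were DEGs at the adjusted p and 11 at the unadjusted p in Aged against Control. Fdft1, squalene synthase, had the smallest SE of these DEGs, with levels of 53.5, 47.3, 57.9 and 62.4 CPM (Control), 207, 199 and 117 CPM (Aged) and 104, 70.4 and 53.8 CPM (Aged+CF). Its log2 fold change was 1.66 (SE 0.24, adjusted p = 0.00527) and 1.59 without Aged 33 (adjusted p = 0.0142). All Aged ovaries were above all ovaries of both other groups, and Aged 31, not Aged 33, was the highest. Sqle, the epoxidase that takes squalene further, stood at 105, 45.3, 79.8 and 47.7 CPM (Control), 299, 338 and 66.8 CPM (Aged) and 85.03, 171 and 68.9 CPM (Aged+CF). The log2 fold change of 1.76 (SE 0.53) missed the threshold in edgeR (adjusted p = 0.0504), Aged 34 lying below Control 31 and Control 33.

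Lss, which closes the ring to lanosterol, was at 70.2, 30.3, 72.1 and 28.4 CPM (Control), 293, 390.5 and 66.99 CPM (Aged) and 93.9, 109 and 66.98 CPM (Aged+CF) (log2 fold change 2.31, SE 0.54, adjusted p = 0.0212). Cyp51, the demethylase acting on lanosterol, was at 109.9, 56.9, 93.3 and 57.5 CPM (Control), 441, 765 and 133 CPM (Aged) and 143, 216 and 118 CPM (Aged+CF). It rose by 2.49 on the log2 scale (SE 0.49, adjusted p = 0.0126). Aged 34 was below the 2 highest Control ovaries for Lss and above all 4 for Cyp51.

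Tm7sf2 and Lbr encode reductases that catalyse the same step after Cyp51, and Tm7sf2 alone of them was a DEG. It stood at 25.6, 9.48, 16.2 and 10.5 CPM (Control), 112, 170.2 and 22.99 CPM (Aged) and 32.5, 32.05 and 22.8 CPM (Aged+CF) (log2 fold change 2.72, SE 0.57, adjusted p = 0.0146). Lbr, which is also a protein of the inner nuclear membrane, was at 44.6, 50.4, 43.3 and 48.7 CPM (Control), 39.8, 40.001 and 48.2 CPM (Aged) and 50.6, 45.5 and 48.6 CPM (Aged+CF), a log2 fold change of -0.13 (SE 0.10, adjusted p = 0.417). Tm7sf2 was highest and Lbr lowest in the same Aged ovaries, 31 and 33, and the difference between the 2 fold changes was not tested.

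Msmo1, Nsdhl and Hsd17b7 act together in the demethylation of the sterol ring. Msmo1 was at 79.4, 52.9, 94.3 and 67.7 CPM (Control), 362, 761 and 214 CPM (Aged) and 172, 207 and 119.6 CPM (Aged+CF), and it rose by 2.598 (log2, SE 0.39, adjusted p = 0.00547) with all ovaries and by 1.998 (adjusted p = 0.00972) without Aged 33. Nsdhl stood at 28.6, 19.6, 31.9 and 18.2 CPM (Control), 116, 172 and 39.9 CPM (Aged) and 46.3, 59.6 and 38.9 CPM (Aged+CF) (log2 fold change 2.15, SE 0.41, adjusted p = 0.0114). For both genes every Aged ovary and every Aged+CF ovary lay above every Control ovary.

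Hsd17b7 is also an estradiol-forming enzyme known from the corpus luteum, and it was the most variable of the 34 genes. Its levels were 1106, 184, 875 and 57.3 CPM (Control), 3873, 5643 and 156 CPM (Aged) and 509, 209 and 203 CPM (Aged+CF). Within Control the highest ovary held 19.3 times the level of the lowest, and within Aged 36.3 times. The log2 fold change of 2.54 in Aged had an SE of 1.11 and did not pass (adjusted p = 0.148). Per length it was the most abundant gene of the list in Control and Aged, at 104 ± 96.9 FPKM in Control (SD, n = 4) and 532 ± 449 FPKM in Aged (SD, n = 3). In Aged+CF its mean was 56.3 FPKM, below the 109 FPKM of Scarb1 and the 67.6 FPKM of Hmgcs1.

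The last steps are those of the isomerase Ebp, the desaturase Sc5d and the reductase Dhcr7. Ebp stood at 35.3, 28.4, 34.3 and 28.6 CPM (Control), 87.6, 138 and 44.5 CPM (Aged) and 41.3, 48.8 and 46.8 CPM (Aged+CF) (log2 fold change 1.50, SE 0.29, adjusted p = 0.0119). Sc5d was at 154, 119, 187 and 108 CPM (Control), 533, 946 and 259.7 CPM (Aged) and 151, 165 and 127 CPM (Aged+CF) (log2 fold change 2.03, SE 0.36, adjusted p = 0.00938). For Sc5d all 3 Aged+CF ovaries fell inside the Control range, and all 3 Aged ovaries lay above it. Dhcr7, at 138, 64.8, 135 and 49.9 CPM (Control), 401, 628 and 89.5 CPM (Aged) and 211, 514 and 102 CPM (Aged+CF), did not pass at the adjusted p (log2 fold change 1.95, SE 0.68, adjusted p = 0.0795). Aged+CF 32 held more Dhcr7 than Aged 31, which no other gene of the sterol steps but Lbr showed.

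Of the genes of SREBP and LXR control, 3 of 8 were DEGs in Aged against Control. Srebf2, the SREBP factor best known for cholesterol genes, was at 222, 186, 196 and 189 CPM (Control), 301, 369.7 and 259.9 CPM (Aged) and 239, 268 and 254 CPM (Aged+CF). For Srebf2 the log2 fold change was 0.65 (SE 0.12, adjusted p = 0.0116), which fell to 0.53 without Aged 33, under the 1.5-fold limit. Every Aged ovary and every Aged+CF ovary was above every Control ovary. Srebf1, known for fatty acid genes, was at 81.9, 79.9, 85.6 and 82.9 CPM (Control), 94.2, 118 and 93.5 CPM (Aged) and 91.5, 97.9 and 89.6 CPM (Aged+CF) (log2 fold change 0.30, adjusted p = 0.0574).

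Insig1, the retention protein that is itself an SREBP target, stood at 97.1, 75.2, 88.2 and 70.1 CPM (Control), 212, 413 and 98.3 CPM (Aged) and 110.4, 162 and 98.1 CPM (Aged+CF). It rose by 1.54 on the log2 scale (SE 0.39, adjusted p = 0.0264) and by 0.94 without Aged 33, where the adjusted p was 0.0787. Insig2, its relative, was at 30.5, 30.4, 32.8 and 32.3 CPM (Control), 43.96, 48.9 and 41.4 CPM (Aged) and 35.3, 45.8 and 38.8 CPM (Aged+CF), a log2 fold change of 0.51 (SE 0.11, adjusted p = 0.0158) that stayed under the 1.5-fold limit. The Aged values lay above the Control values without overlap for both genes. Scap was at 433, 378, 466.3 and 351 CPM (Control), 762, 716 and 341 CPM (Aged) and 465, 532 and 438 CPM (Aged+CF) (log2 fold change 0.57, adjusted p = 0.132), with Aged 34 the lowest of all 10 ovaries.

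Of the sterol-sensing LXR receptors, Nr1h3 (LXRα) was a DEG and Nr1h2 (LXRβ) was not. Nr1h3 was scarce, at 10.2, 9.73, 7.86 and 6.47 CPM (Control), 13.5, 19.6 and 19.8 CPM (Aged) and 9.17, 17.2 and 12.4 CPM (Aged+CF). Its log2 fold change in Aged was 1.05 (SE 0.24, adjusted p = 0.0211), and it was as high in Aged 34 as in Aged 33. Nr1h2 lay between 51.3 and 83.7 CPM in all ovaries (log2 fold change 0.13, adjusted p = 0.606). Mylip, an LXR target that sends lipoprotein receptors to degradation, lay between 20.7 and 43.8 CPM and was lowest in Aged 33 (log2 fold change -0.26, adjusted p = 0.412).

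For uptake, transport and storage, 3 of 6 genes were DEGs. Scarb1, the receptor for high-density lipoprotein, was at 1065, 823, 1063 and 387 CPM (Control), 3069, 4032 and 1148 CPM (Aged) and 1061, 1946 and 994 CPM (Aged+CF) (log2 fold change 1.72, SE 0.46, adjusted p = 0.0329). Per length Scarb1 came next after Hsd17b7 in both groups, at 70.3 ± 27.3 FPKM in Control (SD, n = 4) and 207 ± 101 FPKM in Aged (SD, n = 3). Stard4, which carries sterol between membranes, stood at 40.9, 21.2, 34.5 and 31.7 CPM (Control), 97.9, 181 and 44.002 CPM (Aged) and 52.8, 60.8 and 46.8 CPM (Aged+CF). It rose by 1.74 (log2, SE 0.39, adjusted p = 0.0179), and by 1.18 without Aged 33 (adjusted p = 0.0488). Aged lay above Control without overlap for both.

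Npc2 and Npc1 pass cholesterol out of the late endosome. Npc2 was at 311, 239.7, 292 and 209.9 CPM (Control), 547, 616 and 288 CPM (Aged) and 308, 362 and 272 CPM (Aged+CF) (log2 fold change 0.88, SE 0.24, adjusted p = 0.0372). Npc1 lay between 85.7 and 129 CPM in all ovaries with a log2 fold change of -0.02 (SE 0.11), whose sign turned with DESeq2's size factors, without Aged 33 and without 3 other ovaries. Npc1 was lowest in Aged 33, the ovary with the highest Npc2.

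Soat1 and Lipe work in opposite directions on stored cholesterol: Soat1 esterifies it and Lipe frees it. Soat1 was at 814, 855, 596 and 658 CPM (Control), 899.8, 1499 and 879 CPM (Aged) and 709, 774 and 705 CPM (Aged+CF) (log2 fold change 0.58, SE 0.20, adjusted p = 0.0799). Lipe stood at 55.97, 44.2, 61.003 and 37.3 CPM (Control), 90.1, 132 and 49.02 CPM (Aged) and 47.6, 68.3 and 41.7 CPM (Aged+CF) (log2 fold change 0.86, SE 0.31, adjusted p = 0.0851). Both had their highest level in Aged 33, and neither was a DEG at the adjusted p.

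The second comparison, Aged+CF against Aged, asks what the fat extract went along with in old ovaries. It shares the 3 Aged ovaries with the comparison above, so a high Aged ovary moves both, in opposite directions, and the values are given side by side only. At the adjusted p 0 of the 34 genes were DEGs in edgeR, and 0.00528% of all tested genes were. At the unadjusted p 20 genes were lower in Aged+CF (4.05% of all tested genes were lower) and 0 higher (3.91%): 7 of the 8 mevalonate genes, 9 of the 12 squalene and sterol genes, Insig1, and 3 of the 6 transport genes. DESeq2's Wald test called 4 at the adjusted p. The share of all tested genes that it called is not given here, so the 4 have no background beside them. The median log2 fold change was -0.99 over the 34 genes and -0.02 over all tested genes.

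The 3 smallest p-values of the list were those of squalene and sterol genes. Sc5d was lower by a log2 fold change of -1.97 (SE 0.40, unadjusted p = 0.000574, adjusted p = 0.150), Fdft1 by -1.20 (SE 0.26, unadjusted p = 0.00103, adjusted p = 0.159) and Msmo1 by -1.42 (SE 0.41, unadjusted p = 0.00632, adjusted p = 0.180). For these 3 genes every Aged+CF ovary lay below every Aged ovary, Aged 34 included. Hsd17b7 had a log2 fold change of -3.39 with an SE of 1.27 (adjusted p = 0.245), and its Aged 34 ovary held less than all 3 Aged+CF ovaries. Groups did not overlap for 5 genes in all, lower in Aged+CF (8.39% of all tested genes were): Sc5d, Fdft1, Msmo1, Ggps1 and Soat1.

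Of the mevalonate genes, Idi1 had a log2 fold change of -1.71 (SE 0.63, unadjusted p = 0.0226), Mvd -1.54 (SE 0.58, unadjusted p = 0.0240) and Hmgcs1 -1.21 (SE 0.54, unadjusted p = 0.0478). In each of them Aged 34 lay below at least 1 Aged+CF ovary. Ggps1 stood at -0.22 (SE 0.10, unadjusted p = 0.0548), which is under the 1.5-fold limit although its groups did not overlap. Dhcr7, of the sterol steps, was at -0.44 (SE 0.72, unadjusted p = 0.559), with Aged+CF 32 at 514 CPM.

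Among the control and transport genes, Insig1 had a log2 fold change of -0.96 (SE 0.42, unadjusted p = 0.0433), Stard4 -1.01 (SE 0.42, unadjusted p = 0.0364) and Lipe -0.78 (SE 0.33, unadjusted p = 0.0411). Scarb1 at -1.04 (SE 0.49, unadjusted p = 0.0611) and Srebf2 at -0.29 (SE 0.13, unadjusted p = 0.0548) did not pass, nor did Soat1 at -0.58 (SE 0.22, unadjusted p = 0.0239), which was just under the fold limit. Nr1h2, Mylip, Npc1 and Lbr had positive log2 fold changes between 0.04 and 0.23, none past the threshold, and the sign turned for Mylip without Aged 33 and for Nr1h2 without Aged 34 or Aged+CF 32.

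**Figure D3:**
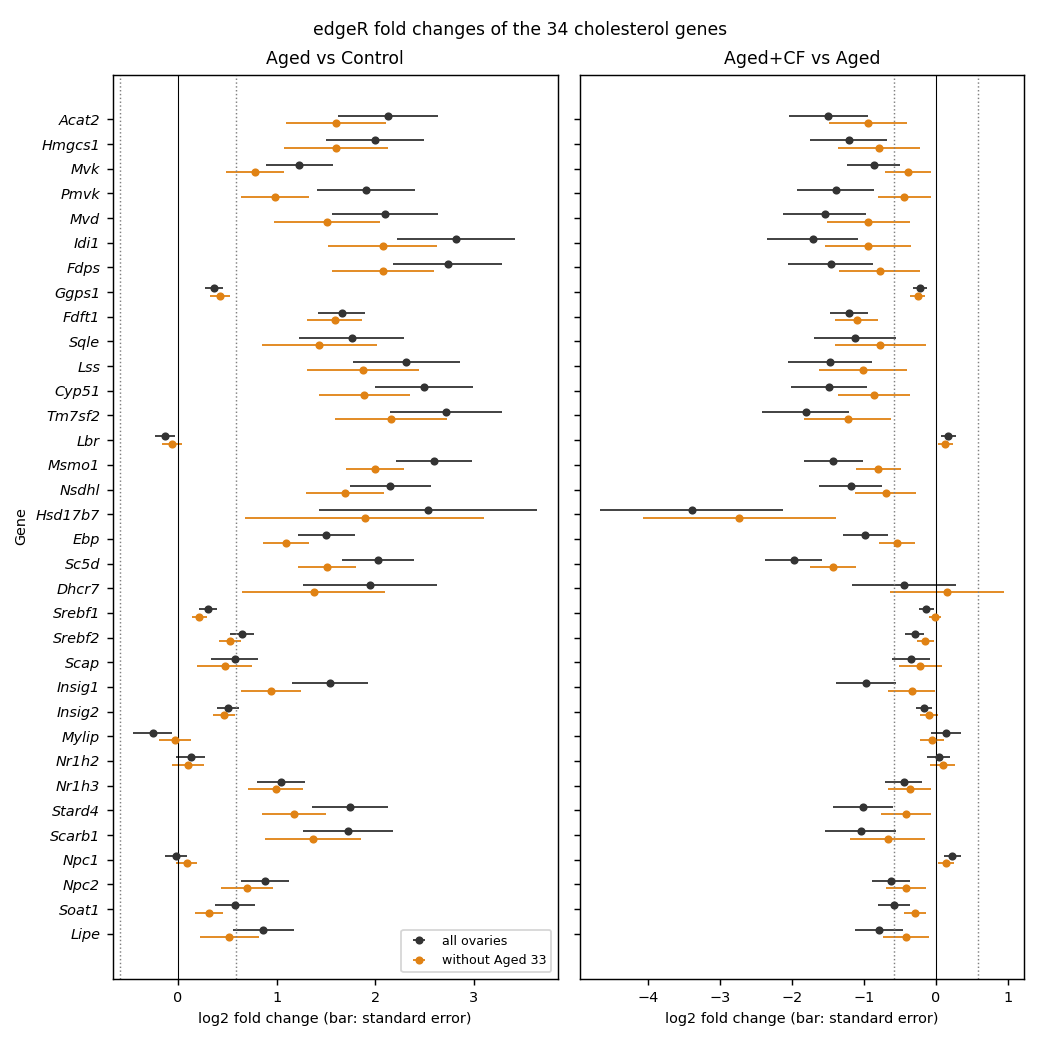
Log2 fold changes (points) with standard errors (bars) of the 34 genes from edgeR, in Aged against Control (left) and Aged+CF against Aged (right), with all 10 ovaries (black) and without Aged 33 (orange); dotted lines mark 1.5-fold. Without Aged 33 the median moved from 1.69 to 1.13 on the left and from -0.99 to -0.43 on the right.

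The count depended on which ovaries were in the fit. Without Aged 33, 3 of the 34 genes were lower at the unadjusted p (3.96% of all tested genes), Fdft1 (-1.10, unadjusted p = 0.00527), Sc5d (-1.43, unadjusted p = 0.00167) and Msmo1 (-0.80, unadjusted p = 0.0338), by edgeR's quasi-likelihood test, and 0 at the adjusted p (0.0306% of all tested genes in either direction). Without Aged 34, 17 were lower at the adjusted p (2.16% of all tested genes) and 24 at the unadjusted p (6.54%). Leaving out Aged 31 gave 12 at the unadjusted p, leaving out Aged+CF 30 gave 6 and leaving out Aged+CF 34 gave 5. For these last fits no share of all tested genes is given here.

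**Figure D4:**
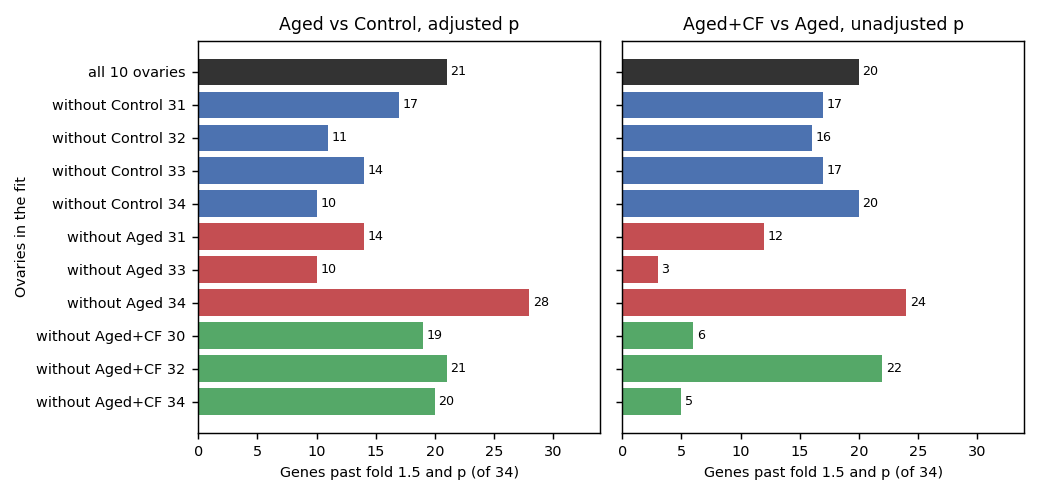
Number of the 34 genes past 1.5-fold and the threshold of p (bars from 0) in fits with all 10 ovaries and with each ovary left out, for Aged against Control at the adjusted p (left, all higher in Aged) and Aged+CF against Aged at the unadjusted p (right, all lower in Aged+CF). The counts run from 10 to 28 on the left and from 3 to 24 on the right, the lowest on the right without Aged 33.

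The third comparison, Aged+CF against Control, asks how far treated old ovaries were from young ones. At the adjusted p 0 of the 34 genes were DEGs in edgeR (0.179% of all tested genes were), and at the unadjusted p 5 were higher in Aged+CF (3.33% of all tested genes were higher) and 0 lower (4.36%). They were Msmo1 (log2 fold change 1.18, SE 0.38, unadjusted p = 0.0112), Fdps (1.27, SE 0.54, unadjusted p = 0.0392), Nsdhl (0.97, SE 0.41, unadjusted p = 0.0378), Nr1h3 (0.60, SE 0.24, unadjusted p = 0.0348) and Dhcr7 (1.51, SE 0.67, unadjusted p = 0.0492). The median log2 fold change was 0.52 over the 34 genes and -0.03 over all tested genes, and 31 of the 34 were positive. Aged+CF lay above Control without overlap for 13 genes (9.69% of all tested genes were higher without overlap), among them Idi1, Fdps, Cyp51, Msmo1, Nsdhl, Srebf2 and Insig1. Sc5d and Soat1 were at the Control level, with log2 fold changes of 0.05 (SE 0.36) and -0.00 (SE 0.20). At the unadjusted p 13 genes were higher without Aged 34 (4.37% of all tested genes) and 7 without Aged 33 (4.2%). The count was 1 without Aged+CF 32 or Control 34, 2 without Aged+CF 30 or Control 32, and 3 without Aged 31, Control 31 or Control 33. For these last fits no share of all tested genes is given here. The Aged ovaries act on this comparison only through the filter, the scaling and the spread, which the 3 groups shared in the fit.

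Other genes of lipid metabolism were counted beside these. Of 22 further sterol and isoprenoid genes outside the 34 (processing and retention factors of SREBP, prenyl chain enzymes, cholesterol esterases, sterol hydroxylases and transfer proteins), 1 was a DEG in Aged against Control, and the median log2 fold change was 0.09. It was Stard5, a sterol transfer protein related to Stard4, at 1.75 (SE 0.25, adjusted p = 0.00515), which had a log2 fold change of -0.01 in Aged+CF against Aged. Of 11 fatty acid genes known as SREBP-1 targets, 6 were DEGs, all higher in Aged, with a median of 1.30: Acss2 (2.21), Acly (1.46), Thrsp (1.34), Me1 (1.30), Fads1 (1.30) and Fads2 (1.20, all log2). Fasn, the fatty acid synthase, was level at 0.00 (SE 0.19). In Aged+CF against Aged 0 of the 11 passed at the adjusted p and 4 were lower at the unadjusted p. Without Aged 33 the fatty acid DEGs in Aged against Control numbered 4, those lower in Aged+CF at the unadjusted p numbered 2, with the median moving from -0.83 to -0.37, and the DEGs among the 22 further sterol genes numbered 2.

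Of 9 genes that turn cholesterol into steroid, 4 were DEGs and higher in Aged (5.0% of all tested genes were) and 0 were lower (6.06%). Star, which brings cholesterol into the mitochondrion, had a log2 fold change of 2.83 (SE 0.65, adjusted p = 0.0194), and Cyp11a1, which cleaves its side chain, 1.47 (SE 0.31, adjusted p = 0.0158). Fdx1 and Hsd3b1, the latter also counted as a luteal marker below, were the other two. Without Aged 33, 2 of the 9 were DEGs. The estrogen-forming Hsd17b1 and Cyp19a1 went the other way. Hsd17b1 was lower in Aged by a log2 fold change of -0.67 (SE 0.27, unadjusted p = 0.0347). Cyp19a1 was at -1.77 (SE 0.81, unadjusted p = 0.0530) and did not pass. The median over the 9 was 0.67, and 1 was lower in Aged+CF against Aged at the unadjusted p, Cyp17a1 at -2.79 (SE 1.13).

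Summed luteal, erythroid and endothelial markers had the same order within Aged as the median of the 34 genes, and summed markers of the other cell types did not. All 5 luteal markers (Ptgfr, Prlr, Akr1c18, Parm1, Hsd3b1) were DEGs and higher in Aged, and their summed level was 3882 to 5595 CPM in Control, 6284 to 14837 CPM in Aged and 7266 to 11215 CPM in Aged+CF. Within Aged it was highest in Aged 33 and lowest in Aged 34, and within Aged+CF it was highest in Aged+CF 32, the same order as the cholesterol genes. In Aged+CF against Aged the median log2 fold change of the luteal markers was -0.33, and 0 of 5 passed at the unadjusted p. All 3 erythroid markers (Hba-a1, Hbb-bs, Alas2) were DEGs with a median of 2.29, and their sum was 46.5 to 75.0 CPM in Control, 177 to 414 CPM in Aged and 72.8 to 166 CPM in Aged+CF. It was highest in Aged 33 and, within Aged, lowest in Aged 34, and in Aged+CF against Aged the median was -1.33 with 2 of 3 lower at the unadjusted p. Of the 4 endothelial markers 3 were DEGs and higher in Aged. The 4 summed to 274 to 350 CPM in Control, 393 to 504 CPM in Aged and 358 to 387 CPM in Aged+CF (median -0.36 against Aged, 0 of 4 at the unadjusted p). Within Aged this sum was again highest in Aged 33 and lowest in Aged 34, but by itself only Kdr had the full order. Within Aged+CF the erythroid and endothelial sums ran opposite to the luteal sum, highest in Aged+CF 34 and lowest in Aged+CF 32. The 8 oocyte markers summed to 286 to 388 CPM in Control, 10.6 to 80.5 CPM in Aged and 108 to 169 CPM in Aged+CF, and 7 of 8 were DEGs and lower in Aged. Oviduct markers were highest in Control 33 (377 CPM) and Aged 34 (359 CPM) and between 5.43 and 88.6 CPM in the rest. Macrophage markers were highest in Aged 34, at 865 CPM against 190 to 391 CPM in the others, and 2 of the 6 were DEGs and higher in Aged. Summed theca and interstitial markers lay at 449.5 to 1186 CPM in Control, 2096 to 2380 CPM in Aged and 562 to 759 CPM in Aged+CF. Most of the Aged sum was Lhcgr (1967, 1861 and 1789 CPM in Aged 31, 33 and 34). Of these 4 markers 1 was a DEG higher in Aged and 1 a DEG lower in Aged, with a median log2 fold change of -0.17. Of the 7 granulosa and 5 adipocyte markers 0 were DEGs at the adjusted p by edgeR, and at the unadjusted p 3 granulosa markers were lower in Aged and 0 adipocyte markers differed. The part of any of these cell types in the cholesterol gene values was not tested.

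**Figure D5:**
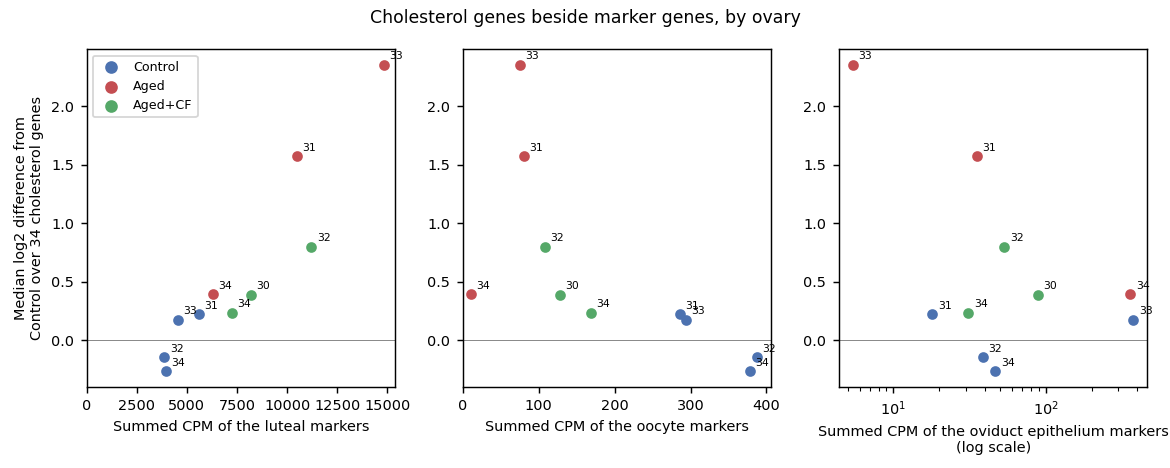
Median difference of the 34 genes from the Control mean (y axis, log2 CPM) against the summed CPM of luteal, oocyte and oviduct markers (x axes, the last on a log scale), with 1 point per ovary labelled by replicate. Aged 33 has both the highest luteal sum (14837 CPM) and the highest median (2.35). Aged 34, at a median of 0.39, has high oviduct markers (359 CPM) and the lowest oocyte sum (10.6 CPM). Control 33 has high oviduct markers too (377 CPM), at a median of 0.17.

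The 20 genes of the mevalonate and sterol steps were summarised by the mean of their log2 CPM in each of the 10 ovaries, and 13086 other genes of at least 5 CPM were ranked by their likeness to it. The closest were Rgs10, a regulator of G-protein signalling (Pearson r = 0.991, and 0.988 without Aged 33), Slc25a16, a mitochondrial carrier (r = 0.990 and 0.981), and 6430548M08Rik (r = 0.988 and 0.992). Rgs10 stood at 22.002, 16.8, 22.8 and 14.3 CPM (Control), 51.5, 56.6 and 21.3 CPM (Aged) and 24.6, 27.4 and 21.98 CPM (Aged+CF). For the 34 genes themselves r was also taken, each of the 20 being left out of the mean it was set against. It was 0.81 or more for 27 of the 34, 0.57 for Ggps1, -0.30 for Npc1, -0.79 for Mylip and -0.82 for Lbr. These values describe 10 ovaries that share 3 groups, with Aged 31 and Aged 33 far above the rest. The CPM of the 20 genes summed to 9232 in Aged 31 and 13979 in Aged 33, and to at most 3099 elsewhere (Aged+CF 32). The r without Aged 33 still includes Aged 31.

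Some of the genes overlap others in the annotation, and whether counting used the strand is not given in the sources used here. Fdps shares its strand with Gm43738, Tm7sf2 with Vps51 and Scarb1 with Gm42633, while Fdft1 lies opposite Ctsb, Cyp51 opposite Akap9 and Ggps1 opposite Arid4b, so reads in the shared stretches cannot be assigned with certainty.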

How the data were processed

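RNA-seq of whole mouse ovaries was analysed from 1 deposited table with raw read counts and FPKM for each of 10 ovaries. The counts were deposited by the authors as whole numbers per gene, not normalised, and the FPKM deposited by the authors are those counts scaled by transcript length and library depth. The submitters' processing notes name TopHat, Cufflinks 2.1.1 and GRCm38.p4; the counting tool and its strand setting are not given in the sources used here. The 34 genes and all other lists were chosen with earlier results of these data known.

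Genes with low counts were removed with edgeR's filterByExpr, which left 18956 of 55487. Counts were scaled by TMM and fitted with edgeR 4.0.16 (R 4.3.3, glmQLFit and glmQLFTest) with a mean per group over all 10 ovaries. The 3 groups shared the estimate of the spread, so the scatter of Aged also enters the SE of Aged+CF against Control. The p-values were adjusted by Benjamini-Hochberg over all tested genes. Genes past 1.5-fold and an adjusted p under 0.05 were called, and the same fold with an unadjusted p was counted beside it. CPM are TMM-scaled; log2 CPM used a prior count of 2. Per-ovary values were given for genes called in any comparison and for Hmgcs1, Sqle, Srebf2, Insig1, Scarb1 and Soat1, plus, after their values were seen, for Ggps1, Lbr, Srebf1, Scap and Insig2. Positions and overlaps were taken from GENCODE M21, which holds 55141 of the gene identifiers. Promoters came from RefSeq (GRCm38.p6). The fit was tested on simulated counts. Alternatives were no filter, DESeq2 1.42.0 size factors, its Wald test, only the compared groups, a replicate block (also over all 3 groups, added after seeing the data), and leaving out each ovary. Precision is limited by 3 or 4 ovaries a group: the biological coefficient of variation was 0.209 (Control), 0.377 (Aged) and 0.193 (Aged+CF).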

Additional observations from a re-analysis of the deposited data

How the results depend on the processing

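In Aged against Control, the 21 genes past the adjusted p became 13 with the compared groups alone and 10 to 28 when each ovary was left out, while other filters, DESeq2's size factors and its Wald test gave 19 to 25. In Aged+CF against Aged, the 0 genes past the adjusted p became 4 with DESeq2's Wald test and 0 to 17 with each ovary left out, and the 20 past the unadjusted p became 13 with the compared groups alone and 3 to 24 with each ovary left out. In Aged+CF against Control, the 0 past the adjusted p became 1, and the 5 past the unadjusted p became 12, with the compared groups alone, and leaving out each ovary gave 1 to 13. The cause was not tested.

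Replicate numbers are shared by some ovaries of different groups, but the labels do not say what a number marks. Deviations from the group means of same-numbered Aged and Control ovaries correlated at 0.138, -0.185 and 0.070. The value was -0.061 for Aged+CF 34 with Aged 34, -0.087 for Aged+CF 32 with Control 32 and 0.153 for Aged+CF 34 with Control 34. So few ovaries cannot settle whether a number marks a shared batch. The main fits did not take the numbers as pairs, and fits with a replicate block are given beside them. With a replicate block the count was 0 at the adjusted p and 25 at the unadjusted p in Aged against Control, and 0 and 18 in Aged+CF against Control. Those fits hold only the 2 groups compared, and an ovary without a same-numbered partner adds nothing to the contrast. Aged+CF and Aged share 1 number, so a replicate block over all 3 groups was chosen after seeing the data, in which Aged+CF 30 has no partner. It gave 3 genes at the adjusted p in Aged against Control, 0 at the adjusted p and 2 at the unadjusted p in Aged+CF against Aged (median log2 fold change -0.29), and 0 and 17 in Aged+CF against Control (median 0.91). Under it the sign in Aged+CF against Aged turned for Dhcr7 (0.44), Scap (0.063), Mylip (-0.16) and Nr1h2 (-0.14).

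The sign turned for Npc1 in Aged against Control (0.0044 with DESeq2's size factors and 0.0047 with its Wald test), which ranged from -0.069 to 0.088 with each ovary left out and was positive without Control 34, Aged 33, Aged+CF 30 or Aged+CF 34. In Aged+CF against Aged the range with each ovary left out was -1.25 to 0.16 for Dhcr7, positive without Aged 33, -0.057 to 0.35 for Mylip, negative without Aged 33, and -0.033 to 0.095 for Nr1h2, negative without Aged 34 or Aged+CF 32. Beside these and the 4 genes named under the block, no sign among the 34 genes turned in these 2 comparisons.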
